A study of Mus musculus with 6 samples.

Results

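The nuclear-encoded genes of oxidative phosphorylation were examined in mouse CD8+ T cells exposed to neutrophil extracellular traps (NETs), strands of chromatin studded with granule proteins, cast out by neutrophils. Members were chosen by symbol alone: every row starting with Nduf, Uqcr, Atp5 or Cox4 to Cox8, together with Sdha, Sdhb, Sdhc, Sdhd and Cyc1, which gave 96 of the 22064 rows. Of these, 89 carried values, 7 were blank (Ndufa6, Ndufb4b, Ndufs6, Cox4i2, Cox7b2, Cox8b and Cox8c), and 87 passed the filter on low counts, with Ndufa4l2 and Cox6a2 below it. The 2 groups were NET, CD8+ T cells cultured with NETs at 10 μg/mL (3 libraries), and control, CD8+ T cells without NETs (3 libraries). The labels give spleen as the tissue of all 6 and list the cells under the heading of cell line, while the study's methods describe T cells taken from spleens of BALB/c mice, with a CD8a isolation kit for its T cell cultures, and NETs collected from neutrophils stimulated with PMA. Its methods for T cell culture name anti-CD3, anti-CD28 and interleukin-2, without saying whether the sequenced cells of both groups were stimulated in this way. No allele is given for either group. Nothing in the labels says whether the libraries of a group came from separate mice or from separate cultures of one pool, and the p-values cover only the spread among the libraries, which may be technical. In bulk RNA, fewer cells of a type and less RNA per cell cannot be told apart. Totals ran from 18696355 to 19425700 estimated counts per library. The members held 1.01%, 0.908% and 0.817% of the counts in NET replicates 1 to 3, against 0.899%, 0.809% and 0.822% in control replicates 1 to 3.

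Oxidative phosphorylation moves electrons from NADH and succinate through complexes I, II, III and IV of the inner mitochondrial membrane to oxygen, and complex V (ATP synthase) uses the resulting proton gradient to make ATP. Every subunit of complex II is encoded in the nucleus, whereas complexes I, III, IV and V also contain subunits from mitochondrial DNA, for which the table had 0 rows. Activated T cells lean on glycolysis for growth, and memory and long-lived effector CD8+ T cells are known for their reliance on mitochondrial respiration.

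The labelled cell type was checked with marker lists. All 5 measured CD8+ T cell markers (Cd8a, Cd8b1, Cd3d, Cd3e, Cd3g) were abundant, their summed level being 1767, 1899 and 1664 CPM (counts scaled to the library total) in NET libraries, against 2456, 2698 and 2836 CPM in control libraries, and all 5 fell with NETs. Markers of several other cells moved the other way. Of 10 B cell markers 9 rose, their sum ranging between 135 and 217 CPM in NET libraries and between 31.8 and 41.2 CPM in control libraries, and 4 of 5 plasma cell markers rose (325 to 350 CPM in NET, 207 to 225 CPM in control). Among neutrophil markers 4 of the 5 tested rose (31.7 to 37.0 CPM in NET, 20.0 to 23.3 CPM in control), and among macrophage and monocyte markers 5 of the 7 tested rose (68.3 to 76.1 CPM in NET, 43.9 to 67.5 CPM in control). Dendritic cell markers (2 higher and 1 lower of 4 tested) summed to between 20.8 and 23.3 CPM in NET libraries and between 14.3 and 17.6 CPM in control libraries. Both CD4+ T cell markers fell (34.0 to 46.4 CPM in NET, 58.5 to 64.7 CPM in control), and the single NK cell marker tested did not pass (sum of 4 markers 81.3 to 108 CPM in NET, 94.5 to 117 CPM in control). No measured marker was at 0 in all 6 libraries. The part of these other cells in the members' values was not tested.

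As a class the members were abundant. Their median level over the 6 libraries was 74.8 FPKM (fragments scaled to transcript length and library total, so that genes can be set side by side), against 11.1 FPKM for all 12546 genes tested. Levels differed by complex. The median was 178 FPKM for the 17 genes of complex V, 160 FPKM for the 14 measured genes of complex IV, 91.0 FPKM for the 9 of complex III, 83.7 FPKM for the 4 of complex II, 58.3 FPKM for the 37 measured of complex I and 11.2 FPKM for the 8 complex I assembly factors, whose products help build the complex without staying in it. The most abundant member was Atp5b, which encodes the catalytic beta subunit of ATP synthase, at 753 FPKM and rank 82 among all tested genes. Cox4i1, the common isoform of cytochrome oxidase subunit 4, followed at 355 FPKM, and then Atp5a1 (the alpha subunit of ATP synthase) at 350 FPKM and Atp5g3 (subunit c) at 343 FPKM. Neither of the tissue-restricted isoforms Ndufa4l2 and Cox6a2 reached 1 FPKM.

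**Figure D1:**
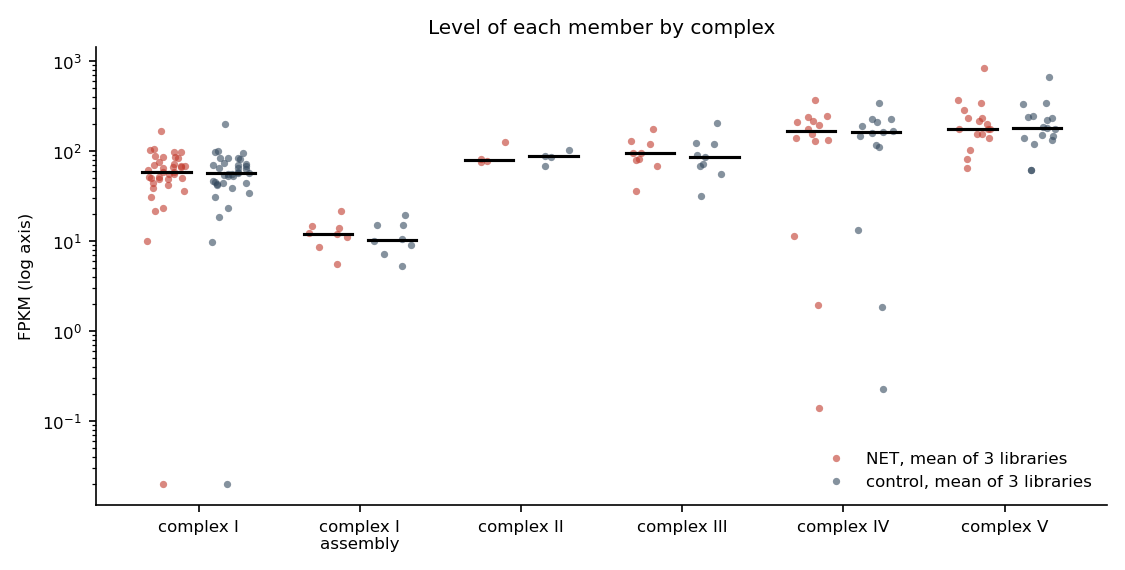
Mean FPKM (log axis) of each of the 89 measured members, NET left and control right within each complex, with black lines at the medians. The assembly factors sit lowest, the medians of complexes IV and V highest, and the clouds of the 2 groups lie at nearly the same height in every complex; the single high point is Atp5b and the lowest points are Ndufa4l2 and Cox6a2.

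Summed over all members, the level was 11285, 9673 and 8608 FPKM in NET replicates 1 to 3, against 10125, 8774 and 8960 FPKM in control replicates 1 to 3. The ranges overlapped, and replicate 1 was the highest library of its group in both. By complex, the summed level (mean ± SD, n = 3 per group) was 2320 ± 396 FPKM in NET and 2245 ± 247 FPKM in control for complex I, and 100 ± 12.6 FPKM in NET and 92.4 ± 8.90 FPKM in control for its assembly factors. It was 361 ± 24.3 FPKM in NET and 348 ± 6.90 FPKM in control for complex II, and 888 ± 103 FPKM in NET and 857 ± 34.1 FPKM in control for complex III. For complex IV it was 2229 ± 374 FPKM in NET and 2091 ± 215 FPKM in control, and for complex V 3957 ± 451 FPKM in NET and 3653 ± 221 FPKM in control. In each complex the FPKM means differed by less than the SD of the NET libraries. In summed CPM the gap exceeded that SD for complex V (4294 ± 355 in NET, 3848 ± 106 in control). It also did for the assembly factors (140 ± 9.52 in NET, 129 ± 3.25 in control), and in both the libraries of the groups overlapped. Complex II lay slightly the other way in CPM (533 ± 30.8 in NET, 545 ± 5.53 in control).

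Gene by gene, few members passed the test. With edgeR's quasi-likelihood test and Benjamini-Hochberg adjustment over all 12546 genes, 7 of 87 members were past an adjusted p of 0.05, 6 higher and 1 lower with NETs. This was 8.05% of the members, where 44.6% of all tested genes passed (22.3% higher and 22.3% lower). None of the 7 changed by more than 0.58 on the log2 scale, whereas 25.2% of all tested genes passed both the test and that size. The members' log2 fold changes (NET over control) ran between -0.38 and 0.44 with a median of 0.06, against a median of -0.01 over all genes. Of the 87, 60 were positive and 27 negative. The libraries of the 2 groups did not overlap for 16 members, 11 with NET above and 5 with NET below, where 54.7% of all tested genes were apart (27.4% with NET above, 27.2% with NET below). The median standard error (SE) was 0.13 for members and 0.13 for all genes. For 65 members the whole 95% interval of the change lay inside 0.58 in either direction, and for the other 22 it reached beyond that size. Of these 22, 5 were members past the test, whose intervals leave out 0, and in the other 17 the interval held both 0 and a change of that size.

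The number and direction of calls moved with single libraries. Without NET replicate 1, 3 members were higher and 6 lower, without NET replicate 2, 3 were higher and 1 lower, and without NET replicate 3, 7 were higher and 1 lower. Without control replicate 1, 6 were higher and 2 lower, without control replicate 2, 2 were higher and 1 lower, and without control replicate 3, 2 were higher and 0 lower. When both libraries numbered 1 were left out, 7 were higher and 8 lower, and all 7 original calls remained. That was 17.2% of members, beside 46.8% of all tested genes. A fit that also adjusted each library for its dependence on transcript length gave 4 higher and 15 lower, with a median of -0.11 for members and -0.07 for all genes. This fit called 21.8% of members and 49.3% of all tested genes. Under it the small positive values of Cox4i1, Cox6b1, Cox7c, Ndufaf1, Sdhc, Uqcrfs1 and Uqcr10 turned negative. Higher calls therefore outnumbered lower ones with all 6 libraries, but not without NET replicate 1, without both libraries numbered 1 or with the length adjustment.

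**Figure D2:**
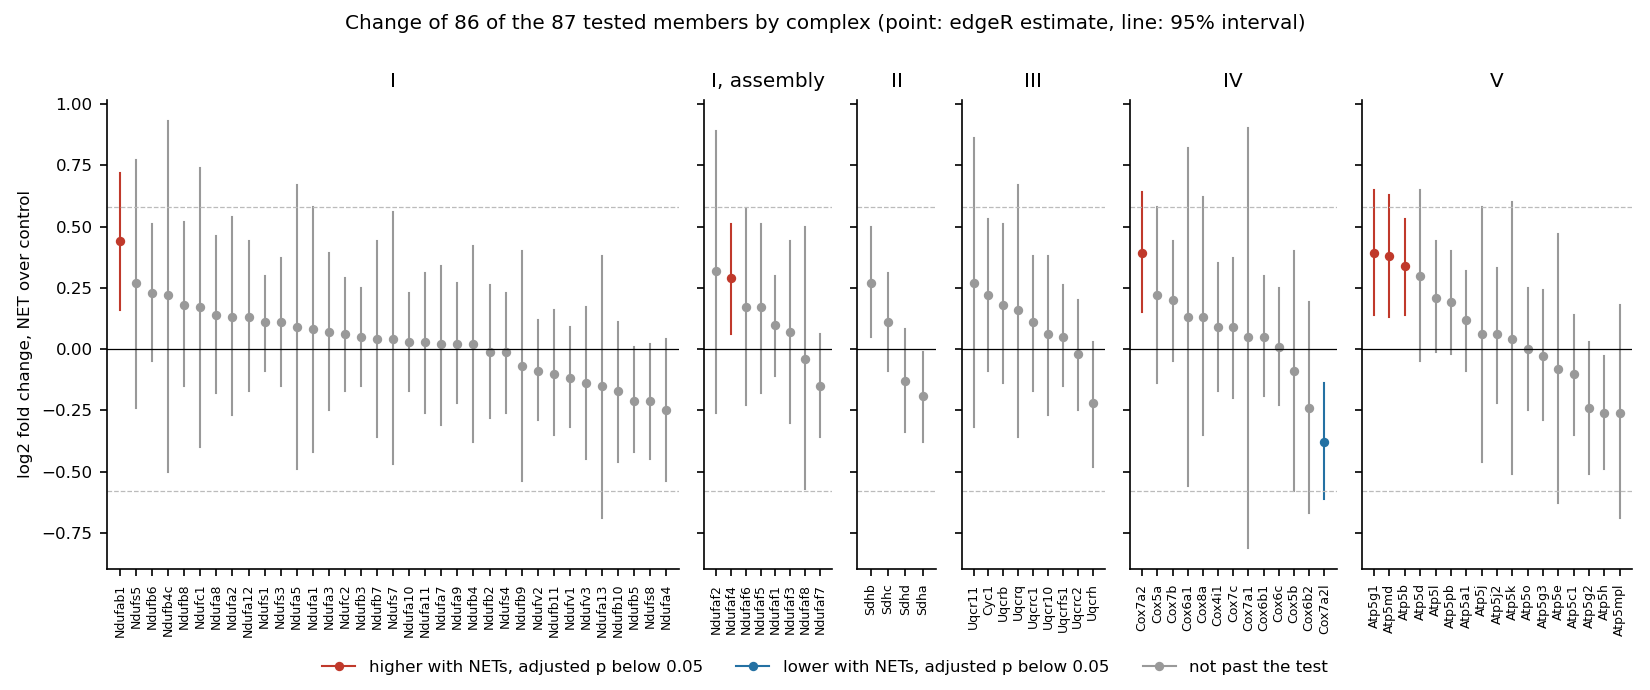
The log2 fold change of 86 of the 87 tested members, NET over control, from edgeR (points) with its 95% interval (lines), by complex. Red points are the 6 members past the test and higher with NETs, the blue point is Cox7a2l, the only one lower, and most intervals cross 0 and stay inside the dashed lines at 0.58 in either direction.

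To set regulatory sequences beside these changes, the 250 bases before the RefSeq transcription start (build GRCm38.p6) were searched on both strands for 4 words tied to factors known to regulate respiratory chain genes. Of 96 members, 77 had an entry, 5 of them several, of which the first was used. The start is the one the entry gives, and in 16 of the 77 the window reached into the RefSeq span of the gene itself, which can begin at an earlier start. GCGCATGC, part of the site of nuclear respiratory factor 1 (NRF1), was in 11.7% of the members' windows and 2.32% of all 27025 genes' windows. CGGAAG, the core recognised by ETS factors such as GABP, was in 35.1% of the members' windows and 13.8% of all. CCAAT, bound by NF-Y, was in 44.2% of the members' windows and 34.5% of all, and AAGATGGC, a YY1 word, in 0 of 77 and 1.59% of all. The words overlap one another in none of the windows printed here, but GCGCATGC and CCAAT can each overlap their own match on the other strand. The median log2 fold change was 0.07 for the 26 tested members with CGGAAG and 0.05 for the 46 without, 0.05 for the 31 with CCAAT and 0.06 for the 41 without, and 0.14 for the 8 with GCGCATGC and 0.05 for the 64 without. A match is a run of letters and was not tested as a binding site.

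Complex V, which turns the proton gradient into ATP, held 3 of the 7 calls among its 17 genes. This was 17.6% of them, where 44.6% of all tested genes passed. Atp5b had 1623, 1559 and 1455 CPM in NET replicates 1 to 3, against 1261, 1209 and 1199 CPM in control replicates 1 to 3. Every NET library was above every control library, and the gap between the groups was wider than the range within control. The log2 fold change was 0.34 ± 0.09 (SE, n = 3 per group, edgeR adjusted p = 0.0107), and the call was lost without control replicate 2 (edgeR adjusted p = 0.0568). Its partner in the catalytic head, Atp5a1, had 923, 896 and 801 CPM in NET libraries, against 837, 790 and 788 CPM in control libraries. Here the groups touched, since all but the lowest NET library were above control, and the change of 0.12 ± 0.09 did not pass (edgeR adjusted p = 0.328).

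The c ring, the rotor through which protons pass, is encoded by 3 genes, Atp5g1, Atp5g2 and Atp5g3, whose mature proteins are identical. Atp5g1 had 70.7, 60.6 and 54.4 CPM in NET replicates 1 to 3, against 51.2, 44.6 and 45.6 CPM in control replicates 1 to 3. The groups did not overlap, and the log2 fold change was 0.39 ± 0.11 (SE, n = 3 per group, edgeR adjusted p = 0.0178). The call was lost without NET replicate 1 (edgeR adjusted p = 0.0562), without control replicate 2 (0.0749) and without control replicate 3 (0.0648). Atp5g2 had 104, 95.8 and 78.1 CPM in NET libraries, against 121, 102 and 104 CPM in control libraries. It lay in the other direction, with the highest NET library inside the control range, and the change of -0.24 ± 0.12 did not pass (edgeR adjusted p = 0.132) but did with the length adjustment (-0.42, edgeR adjusted p = 0.00137). Atp5g3, the most abundant of the genes, had 246, 251 and 191 CPM in NET libraries and 255, 223 and 223 CPM in control libraries, and its change was -0.03 ± 0.12 (edgeR adjusted p = 0.881).

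Shares of subunit c transcripts, computed from FPKM within each library, separated the groups also for Atp5g2, whose levels overlapped. Atp5g1 made up 14.9%, 13.2% and 14.9% of the summed FPKM of the genes in NET replicates 1 to 3, against 10.5%, 10.6% and 10.7% in control replicates 1 to 3. Atp5g2 made up 27.3%, 26.0% and 26.8% in NET libraries and 31.0%, 30.3% and 30.6% in control libraries, while Atp5g3 made up 59.0% ± 1.65 in NET and 58.7% ± 0.371 in control (SD, n = 3 each). The ratio of Atp5g1 to Atp5g2 was 0.537 ± 0.0267 in NET and 0.346 ± 0.00584 in control (SD, n = 3 each, exact two-sided permutation p = 0.1, the smallest that 3 against 3 allows). This pair was chosen with earlier results known, so the p is no independent support. The shares in replicate 1, whose levels stood apart, were close to those of the other replicates.

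The windows upstream of the 3 ATP synthase genes that rose are shown beside that of Atp5g2, which was not called. Atp5b (chr10:128083057-128083306, plus strand) and Atp5g1 (chr11:96075695-96075881, minus strand) each held CCAAT 5 times, counting both strands. They were the 2 members with 5 or more, a number reached by 0.233% of all genes' windows. CCAAT was also in the windows of Atp5c1, Atp5e, Atp5g3, Atp5h, Atp5j2 and Atp5l, none of which was called. Over all complexes, 3 of the 31 tested members with CCAAT were called, and 4 of the 41 without it. The window of Atp5g1 reached 63 bases into the RefSeq span of the gene, and the 187 bases beyond that span, which hold all 5, are printed. Atp5md (chr19:47090648-47090897, minus strand) held CCAAT once and CGGAAG once (as CTTCCG). Atp5g2 (chr15:102671048-102671297, minus strand) held no CCAAT, and had CGGAAG once (as CTTCCG) and the NRF1 word on both strands, overlapping as GCGCATGCGC. In Atp5g1, CCAATTGG is CCAAT on both strands. Capitals mark the words searched, read 5′ to 3′ along the gene, ending at the base before the start (for Atp5g1, before the RefSeq span):
Atp5b: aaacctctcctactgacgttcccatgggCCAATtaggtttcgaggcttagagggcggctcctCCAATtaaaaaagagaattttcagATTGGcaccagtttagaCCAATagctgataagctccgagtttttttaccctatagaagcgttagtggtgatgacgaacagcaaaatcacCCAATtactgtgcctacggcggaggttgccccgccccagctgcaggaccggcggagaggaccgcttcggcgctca
Atp5g1: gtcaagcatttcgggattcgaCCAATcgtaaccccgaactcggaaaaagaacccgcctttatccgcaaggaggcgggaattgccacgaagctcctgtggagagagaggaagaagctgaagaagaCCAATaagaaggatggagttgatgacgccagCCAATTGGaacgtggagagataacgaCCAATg
Atp5md: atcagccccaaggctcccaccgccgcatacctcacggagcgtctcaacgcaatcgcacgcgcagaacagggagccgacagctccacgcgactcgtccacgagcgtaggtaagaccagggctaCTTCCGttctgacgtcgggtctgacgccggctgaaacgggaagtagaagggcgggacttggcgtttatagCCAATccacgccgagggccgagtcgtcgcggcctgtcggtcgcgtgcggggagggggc
Atp5g2: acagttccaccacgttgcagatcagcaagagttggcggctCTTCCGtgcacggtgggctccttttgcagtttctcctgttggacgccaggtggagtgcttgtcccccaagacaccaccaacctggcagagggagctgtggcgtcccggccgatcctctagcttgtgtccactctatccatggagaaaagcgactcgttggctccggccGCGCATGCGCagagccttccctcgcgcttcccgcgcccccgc

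Atp5md, also known as DAPIT or Usmg5, is a small membrane subunit that helps ATP synthase form dimers. It had 62.2, 55.6 and 47.7 CPM in NET replicates 1 to 3, against 45.8, 40.7 and 40.8 CPM in control replicates 1 to 3. The lowest NET library was just above the highest control library, and the log2 fold change was 0.38 ± 0.11 (SE, n = 3 per group, edgeR adjusted p = 0.0208). This was the least steady of the ATP synthase calls. It was lost with the length adjustment (0.18, edgeR adjusted p = 0.107) and without NET replicate 1 (0.0669), NET replicate 2 (0.0548), control replicate 2 (0.0801) or control replicate 3 (0.0750).

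In the other direction, Atp5h, which encodes subunit d of the stalk that holds the head in place, had 117, 113 and 95.0 CPM in NET libraries, against 125, 127 and 139 CPM in control libraries. All NET libraries were below all control libraries, but the change of -0.26 ± 0.10 stopped short of the threshold (edgeR adjusted p = 0.0605). It passed without NET replicate 1 (-0.32, edgeR adjusted p = 0.0455), without both libraries numbered 1 (-0.36, edgeR adjusted p = 0.0254) and with the length adjustment (-0.45, edgeR adjusted p = 0.00319). Atp5mpl, a small proteolipid of the membrane part, had 48.7, 32.9 and 27.0 CPM in NET libraries, against 50.6, 41.3 and 37.6 CPM in control libraries. Its groups overlapped through replicate 1 of NET alone. The change was -0.26 ± 0.20 (edgeR adjusted p = 0.320) with all libraries, -0.52 (edgeR adjusted p = 0.0175) without NET replicate 1 and -0.40 (edgeR adjusted p = 0.0240) without both libraries numbered 1. With the length adjustment it was -0.48 (edgeR adjusted p = 0.00550). Of the remaining genes, picked after their values were seen, Atp5l (subunit g) and Atp5pb (subunit b) had every NET library at or above control with changes of 0.21 and 0.19 that did not pass, and the other 7 had values between -0.10 and 0.30 with none past the test.

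**Figure D3:**
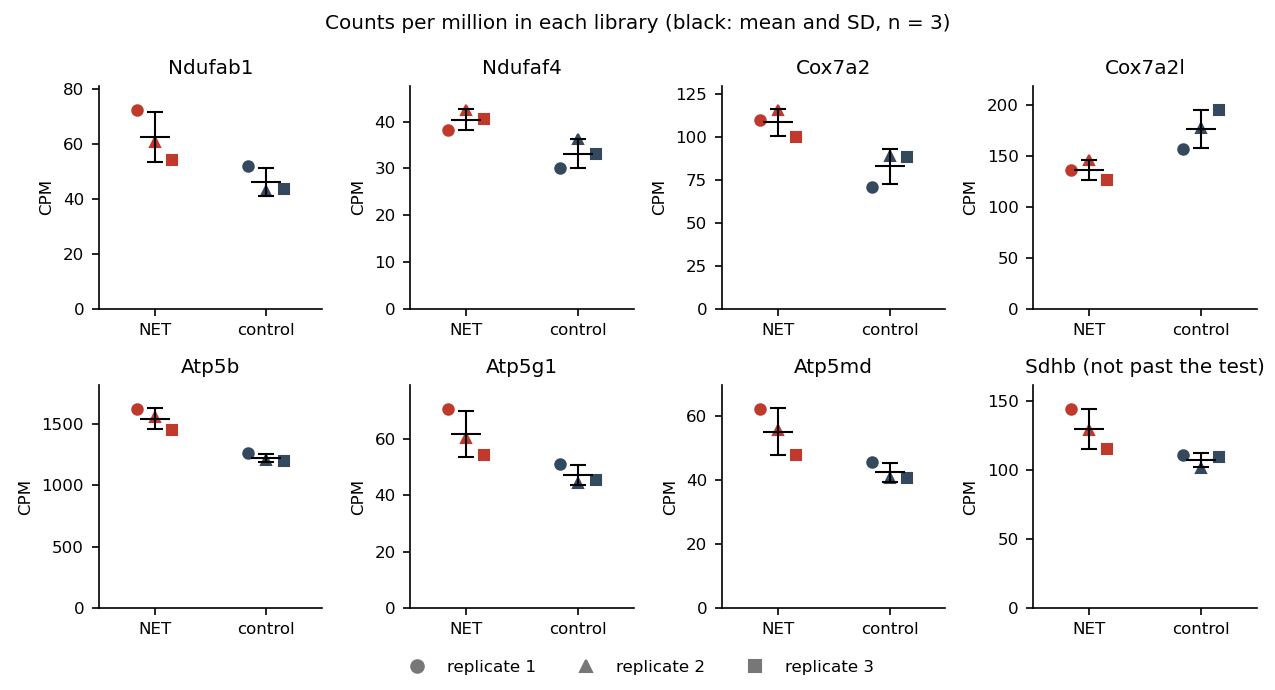
CPM in each library (points, with circle, triangle and square for replicates 1, 2 and 3) of the 7 members past the test and of Sdhb, NET left and control right, with mean and SD in black and axes from 0. In each of the 8 panels the libraries of the groups do not overlap, Cox7a2l is the only gene with NET below control, and the differences are a small part of the level.

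Complex IV, cytochrome c oxidase, hands electrons to oxygen. Of its 13 tested members 2 (15.4%, against 44.6% of all tested genes) passed, in opposite directions. They are related genes. Cox7a2 encodes the widely expressed isoform of subunit 7a, and Cox7a2l encodes a related protein, also called SCAF1, known for joining complexes III and IV into supercomplexes. Whether it does so in cells of BALB/c mice was not tested. Cox7a2 had 110, 116 and 100 CPM in NET replicates 1 to 3, against 71.1, 89.2 and 88.6 CPM in control replicates 1 to 3. The NET libraries were all above the control libraries, and the log2 fold change was 0.39 ± 0.11 (SE, n = 3 per group, edgeR adjusted p = 0.0152). Cox7a2l had 136, 146 and 126 CPM in NET libraries, against 157, 177 and 195 CPM in control libraries. All NET libraries were below control, and the log2 fold change was -0.38 ± 0.10 (SE, n = 3 per group, edgeR adjusted p = 0.0148). The call for Cox7a2 was lost without NET replicate 2 (edgeR adjusted p = 0.0569) and with the length adjustment (0.22, edgeR adjusted p = 0.181), and that for Cox7a2l without control replicate 3 (-0.29, edgeR adjusted p = 0.0860).

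Within each library, the ratio of Cox7a2 to Cox7a2l in FPKM was 1.18, 1.16 and 1.16 in NET replicates 1 to 3, against 0.662, 0.736 and 0.662 in control replicates 1 to 3. Cox7a2 was thus the more abundant of the pair in every NET library and the less abundant in every control library. The ratio averaged 1.17 ± 0.0131 in NET and 0.687 ± 0.0431 in control (SD, n = 3 each, exact two-sided permutation p = 0.1, the smallest that 3 against 3 allows). Since Cox7a2 was above control and Cox7a2l below it in every NET library, the ratio had to separate. The p was therefore fixed by those levels and is no further support. With Cox7a1, the heart and muscle isoform, included, Cox7a2 made up 53.5% ± 0.189 of the family's FPKM in NET and 40.4% ± 1.52 in control (SD, n = 3 each), and Cox7a1 stayed under 1% in all 6 libraries. Most other paralog sets of this complex were near single-isoform: Cox6a1 made up at least 99.6% of subunit 6a transcripts in every library, and Cox6b1 between 94.4% and 96.5% of subunit 6b transcripts in NET libraries and between 94.0% and 94.9% in control libraries. For subunits 4 and 8, Cox4i1 and Cox8a were the only isoforms with values.

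**Figure D4:**
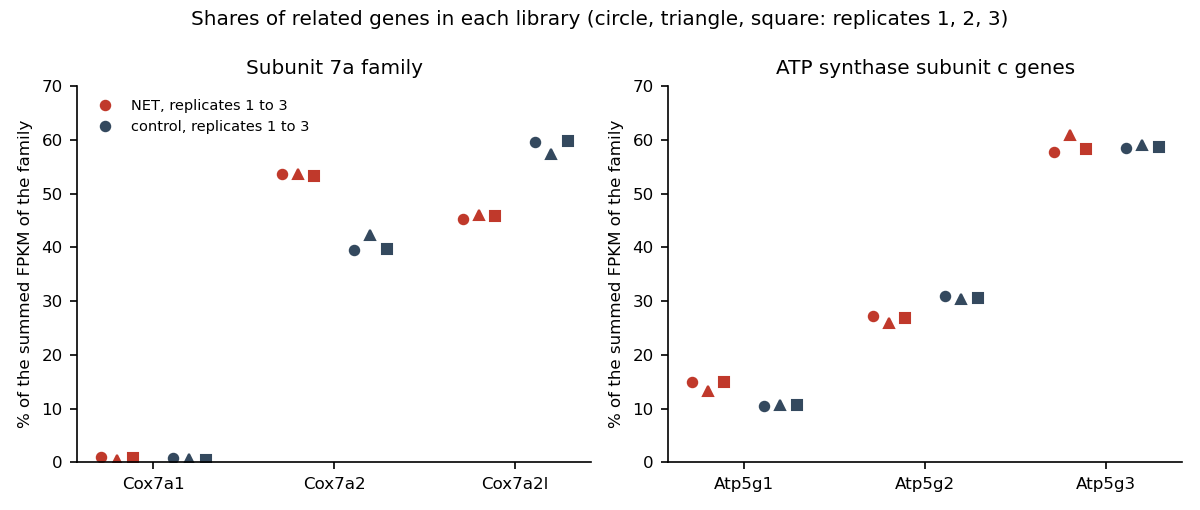
Share of each gene in the summed FPKM of its family, per library, NET left and control right. In the subunit 7a family the NET points put Cox7a2 above Cox7a2l and the control points put it below, and among the subunit c genes Atp5g1 takes a larger and Atp5g2 a smaller share in all NET libraries, with Atp5g3 level.

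The upstream windows of the subunit 7a pair are shown because these related genes changed in opposite directions. Neither Cox7a2 (chr9:79759854-79760103, minus strand) nor Cox7a2l (chr17:83514334-83514583, minus strand) held any of the words searched, so neither window has capitals. The start used for Cox7a2 is an internal one, since the RefSeq span of the gene reaches on to base 79771422, and the windows of any earlier start were not searched:
Cox7a2: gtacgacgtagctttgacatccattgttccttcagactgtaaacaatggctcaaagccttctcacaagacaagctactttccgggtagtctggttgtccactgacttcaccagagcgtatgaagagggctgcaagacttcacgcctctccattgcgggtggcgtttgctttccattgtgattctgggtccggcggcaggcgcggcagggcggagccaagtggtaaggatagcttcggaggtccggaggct
Cox7a2l: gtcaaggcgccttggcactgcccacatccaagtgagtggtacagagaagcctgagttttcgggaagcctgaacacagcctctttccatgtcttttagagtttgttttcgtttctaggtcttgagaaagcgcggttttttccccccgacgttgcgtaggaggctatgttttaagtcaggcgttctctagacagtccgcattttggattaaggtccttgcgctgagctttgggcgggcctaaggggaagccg

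The remaining 11 tested genes of complex IV lay between -0.24 and 0.22 on the log2 scale, with none past the test. Cox4i1 had 287, 261 and 217 CPM in NET libraries, against 260, 220 and 239 CPM in control libraries, and the groups overlapped (0.09 ± 0.12, edgeR adjusted p = 0.567). Its direction turned to -0.09 with the length adjustment. Cox7c, encoding another small subunit, had a change of 0.09 ± 0.13 (edgeR adjusted p = 0.619). Cox6b1, which faces the intermembrane space, had 92.4, 113 and 99.0 CPM in NET libraries, against 86.1, 101 and 107 CPM in control libraries (0.05 ± 0.11, edgeR adjusted p = 0.725). The testis-type isoform Cox6b2 had a change of -0.24 ± 0.19 (edgeR adjusted p = 0.346). Ndufa4, which carries a complex I name but has since been placed in complex IV, had 89.9, 72.4 and 64.4 CPM in NET libraries, against 99.7, 82.9 and 87.3 CPM in control libraries. All but the highest NET library were below control, with a change of -0.25 ± 0.13 (edgeR adjusted p = 0.140), which was -0.39 (edgeR adjusted p = 0.0205) without NET replicate 1 and -0.32 (edgeR adjusted p = 0.0203) without both libraries numbered 1. With the length adjustment the change was -0.45 (edgeR adjusted p = 0.000503).

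Complex I takes electrons from NADH and has the most subunits. Of its 36 tested members 1 passed (2.78%, against 44.6% of all tested genes). Ndufab1, the mitochondrial acyl carrier protein, sits in complex I and also serves mitochondrial fatty acid and lipoic acid synthesis. It had 72.4, 60.8 and 54.2 CPM in NET replicates 1 to 3, against 51.9, 42.7 and 43.5 CPM in control replicates 1 to 3. The groups did not overlap, although the lowest NET library and the highest control library were close, and the log2 fold change was 0.44 ± 0.13 (SE, n = 3 per group, edgeR adjusted p = 0.0169), the highest of all members. It was lost without NET replicate 1 (0.32, edgeR adjusted p = 0.0519), without control replicate 2 (0.0697) and without control replicate 3 (0.0650). Ndufs1, Ndufv1 and Ndufv2, chosen after their values were seen as core subunits of the NADH-oxidising arm, had changes of 0.11, -0.12 and -0.09, all with an SE of 0.09 and none past the test. With the length adjustment Ndufv1 (-0.23, edgeR adjusted p = 0.0390) and Ndufv2 (-0.21, edgeR adjusted p = 0.0471) passed as lower, and Ndufs1 did not pass. The median over complex I was 0.04, with 24 members positive and 12 negative.

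Among the other accessory subunits, Ndufb5, picked because its groups did not overlap, had 65.1, 61.0 and 53.1 CPM in NET libraries, against 69.4, 67.8 and 69.6 CPM in control libraries (-0.21 ± 0.10, edgeR adjusted p = 0.105), and passed without both libraries numbered 1 (-0.27, edgeR adjusted p = 0.0421) and with the length adjustment (-0.38, edgeR adjusted p = 0.00213). It was the only complex I gene with all NET libraries below control, and Ndufab1 the only one with all above. Ndufb4 and Ndufb4c are near-identical copies whose reads may be split by the counting. Ndufb4c took 51.3%, 22.5% and 22.8% of their summed FPKM in NET libraries, against 39.0%, 26.5% and 24.3% in control libraries, so the values of the copies are uncertain.

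Of the 8 assembly factors of complex I, Ndufaf4 alone passed (12.5%, against 44.6% of all tested genes). It had 38.2, 42.5 and 40.6 CPM in NET replicates 1 to 3, against 30.1, 36.2 and 33.1 CPM in control replicates 1 to 3. The groups did not overlap, and this was the one call among those higher with NETs, beside Cox7a2, whose highest libraries were not those numbered 1. The log2 fold change was 0.29 ± 0.10 (SE, n = 3 per group, edgeR adjusted p = 0.0413), the call nearest to the threshold. DESeq2 put it outside (adjusted p = 0.0538), as did leaving out NET replicate 2 (edgeR adjusted p = 0.119), NET replicate 3 (0.0763), control replicate 1 (0.0977) or control replicate 3 (0.0988). Ndufaf1, the most abundant of them, had 29.2, 28.7 and 27.4 CPM in NET libraries, against 25.6, 27.3 and 26.8 CPM in control libraries. These ranges were barely apart, and the change was 0.10 ± 0.09 (edgeR adjusted p = 0.424). Ndufaf8, listed next by level, had a change of -0.04 ± 0.24 (edgeR adjusted p = 0.910).

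The window of Ndufaf4 (chr4:24897833-24898082, plus strand) is shown as the only one of the 7 called members with the NRF1 word, again on both strands and followed by CGGAAG, with all of them in capitals:
Ndufaf4: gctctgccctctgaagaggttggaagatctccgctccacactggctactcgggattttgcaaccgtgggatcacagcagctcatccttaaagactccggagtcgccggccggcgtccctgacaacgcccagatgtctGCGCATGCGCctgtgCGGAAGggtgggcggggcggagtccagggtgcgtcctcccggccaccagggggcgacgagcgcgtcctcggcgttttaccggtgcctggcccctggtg

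Complex II, succinate dehydrogenase, feeds electrons from the citric acid cycle, and none of its 4 genes passed, though 3 of them had groups that did not overlap. Over all tested genes, 44.6% passed and 54.7% had groups apart. Sdhb, the iron-sulfur subunit, had 144, 129 and 115 CPM in NET replicates 1 to 3, against 111, 101 and 109 CPM in control replicates 1 to 3. All NET libraries were above control, with a log2 fold change of 0.27 ± 0.10 (SE, n = 3 per group, edgeR adjusted p = 0.0522). It was past the threshold in 9 of 19 alternatives, among them DESeq2 (adjusted p = 0.0459) and the fit without NET replicate 3 (0.36, edgeR adjusted p = 0.0173). Sdha, the flavoprotein to which Sdhb binds, had 219, 221 and 209 CPM in NET libraries, against 256, 243 and 243 CPM in control libraries. It lay the other way, with all NET libraries below control (-0.19 ± 0.08, edgeR adjusted p = 0.0795), and passed as lower with the length adjustment (-0.24, edgeR adjusted p = 0.0169). The ratio of Sdhb to Sdha in FPKM, set out after the values were seen and so without a test, was 1.80, 1.60 and 1.49 in NET libraries and 1.19, 1.13 and 1.22 in control libraries. Of the membrane anchors, Sdhc had a change of 0.11 ± 0.09 (edgeR adjusted p = 0.335) and Sdhd one of -0.13 ± 0.09 (edgeR adjusted p = 0.281). Sdhd passed as lower with the length adjustment (-0.28, edgeR adjusted p = 0.0150).

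Complex III passes electrons from coenzyme Q to cytochrome c. None of its 9 genes passed and none had groups apart (44.6% and 54.7% over all tested genes). The most abundant, Uqcrh, the hinge subunit at the cytochrome c side, had 87.7, 90.7 and 87.9 CPM in NET libraries, against 85.1, 113 and 113 CPM in control libraries. The NET libraries were close together, and control replicate 1 alone was below them. The change was -0.22 ± 0.12 (edgeR adjusted p = 0.142), and without control replicate 1 it was -0.35 (edgeR adjusted p = 0.00767). Without both libraries numbered 1 it was -0.34 (edgeR adjusted p = 0.00692). Uqcr10 had 63.6, 47.8 and 42.6 CPM in NET libraries, against 54.7, 45.5 and 47.7 CPM in control libraries (0.06 ± 0.15, edgeR adjusted p = 0.775). Of the catalytic subunits, named after their values were seen, Cyc1 (cytochrome c1) had a change of 0.22 ± 0.14 and Uqcrfs1 (the Rieske protein) one of 0.05 ± 0.09, neither past the test.

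Much of the members' spread was shared between the libraries numbered 1. NET replicate 1 was above the mean of NET replicates 2 and 3 by a median of 0.29 on the log2 CPM scale over members, and control replicate 1 above control replicates 2 and 3 by 0.18, where the medians over all tested genes were -0.01 and -0.00. Replicate 1 was the highest library in both groups for 61 of 87 members, 70.1%, and for 24.2% of all tested genes. For 57 members, 65.5%, the gap of replicate 1 was larger than the NET change in both groups (23.1% of all genes). An example is Cox6a1, the main isoform of subunit 6a, with 137, 76.1 and 62.9 CPM in NET replicates 1 to 3 and 123, 65.0 and 64.4 CPM in control replicates 1 to 3. Its libraries numbered 1 were far above the other 4, whichever the treatment, and its change was 0.13 ± 0.31 (edgeR adjusted p = 0.762), or -0.27 without NET replicate 1. Across the 87 members, the gap in NET and the gap in control had a Pearson's r of 0.891, and across all 12546 genes 0.433. These are descriptions across genes, which share the same libraries.

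The gap was larger in short transcripts. For the 31 members under 600 nucleotides (length taken from counts over FPKM) the median gap of replicate 1 was 0.51 in NET and 0.30 in control. For the 27 members of 600 to 1000 nucleotides it was 0.30 in NET and 0.18 in control, for the 17 of 1000 to 1500 it was 0.20 in NET and 0.10 in control, and for the 12 of 1500 or more it was 0.04 in NET and 0.02 in control. All tested genes under 600 nucleotides gave 0.39 in NET and 0.23 in control, so the gap was also there in short genes at large. Members are short, with a median length of 704 nucleotides against 2873 for all tested genes. Between length and the fold change, Spearman's rho was 0.00933 across members and -0.0974 across all 12546 genes. A rho within members cannot show whether length bears on the class, which is short as a whole. With the length adjustment the members' median change was -0.11, against 0.06 without it. What made the libraries numbered 1 differ was not tested.

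**Figure D5:**
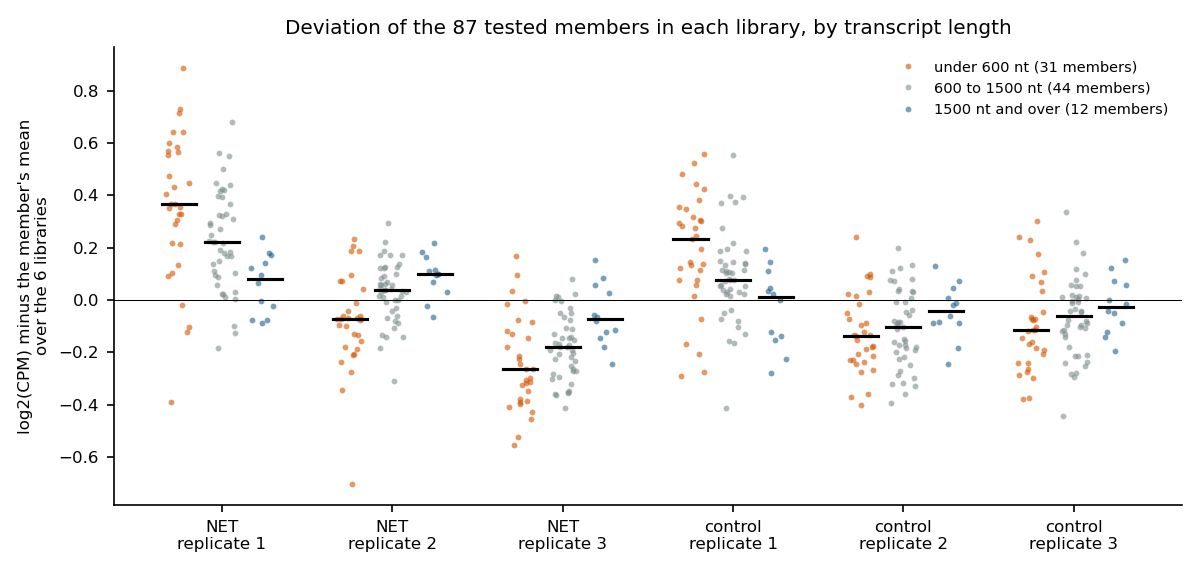
Deviation of each tested member from its own mean over the 6 libraries (log2 CPM), by library and by transcript length class, with medians in black. Short members (orange) have a median deviation of 0.37 in NET replicate 1 and 0.23 in control replicate 1, and of -0.27 in NET replicate 3, while the medians of members of 1500 nucleotides and over (blue) stay between -0.07 and 0.10, with single members outside that range.

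The genes that serve these complexes without being members were taken from lists of 78 symbols, of which 75 were tested, and 16 were higher and 3 lower with NETs (25.3%, where 44.6% of all tested genes passed). Usmg5, listed among them without values, is another name of the member Atp5md. Among 23 tested assembly and copper factors of complex IV, 4 rose and 0 fell (17.4%, where 22.3% of all tested genes were higher). Cox11, a copper chaperone, had 21.6, 21.2 and 19.1 CPM in NET libraries, against 14.9, 11.9 and 13.0 CPM in control libraries (0.64 ± 0.12, edgeR adjusted p = 0.00199). The other risers, Cox19 (0.45), Sco1 (0.38) and Sco2 (0.57), also serve copper delivery to cytochrome oxidase. Cox17 (0.07), Coa6 (0.09) and Cox16 (-0.10), listed with them, did not pass, so the risers do not stand for copper delivery as a whole. Sco2 passed narrowly (edgeR adjusted p = 0.0495), did not pass by DESeq2 (adjusted p = 0.0789) or with the length adjustment (0.43, edgeR adjusted p = 0.0981), and was lost without NET replicate 1 (0.103), NET replicate 2 (0.0961), NET replicate 3 (0.0818), control replicate 2 (0.160) or control replicate 3 (0.167). Tmem70 (0.37) and Atpaf2 (0.29), which help assemble ATP synthase, rose among 5 tested factors of complex V. Nubpl (0.33), which delivers iron-sulfur clusters, was the only riser among 10 factors of complex I, and Ttc19 (0.37) the only one among 6 of complex III, while 0 of 4 factors of complex II passed in either direction by edgeR. Atpaf2 was lost with the length adjustment (0.19, edgeR adjusted p = 0.0740) and without NET replicate 2 (edgeR adjusted p = 0.0676), control replicate 2 (0.0633) or control replicate 3 (0.0834). Nubpl did not pass by DESeq2 (adjusted p = 0.0976), by voom (0.0509) or with the length adjustment (0.19, edgeR adjusted p = 0.215), and with single libraries left out it kept its call without NET replicate 3, with an edgeR adjusted p of between 0.0854 and 0.152 without each of the other 5. Ttc19 was lost without NET replicate 3 (edgeR adjusted p = 0.0897), control replicate 1 (0.0648), control replicate 2 (0.0561) or control replicate 3 (0.0964).

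Electron carriers and coenzyme Q synthesis had 6 higher and 1 lower of 14 genes, where 44.6% of all tested genes passed (22.3% higher and 22.3% lower). Cycs, cytochrome c, which shuttles electrons between complexes III and IV, had 315, 287 and 279 CPM in NET libraries, against 205, 205 and 208 CPM in control libraries. Coq4 (0.58) and Coq3 (0.47), of the coenzyme Q synthesis complex, also rose, and Coq10a, a coenzyme Q binding protein, fell (-0.45, edgeR adjusted p = 0.0208), a call lost without NET replicate 2 (0.0720), NET replicate 3 (0.0581) or control replicate 3 (0.0803). Over the whole list of 14, all NET libraries were above control for 8 genes and below it for 1. Of all tested genes, 27.4% had NET above and 27.2% had NET below.

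Of 13 tested regulators of mitochondrial gene expression, 2 were higher and 2 lower (30.8%, where 44.6% of all tested genes passed). Polg, the mitochondrial DNA polymerase, had 72.3, 65.0 and 73.8 CPM in NET libraries, against 49.3, 40.0 and 39.8 CPM in control libraries (0.71 ± 0.11, edgeR adjusted p = 0.000536). Pprc1, a coactivator related to PGC-1, rose by 0.35 (edgeR adjusted p = 0.0172), and was lost without control replicate 2 (0.0624) or control replicate 3 (0.0764). Ppargc1b, the coactivator PGC-1 beta, had 13.7, 13.1 and 11.8 CPM in NET libraries, against 22.2, 20.1 and 18.8 CPM in control libraries, and fell (-0.66 ± 0.12, edgeR adjusted p = 0.00131). Tfam, which packages and transcribes mitochondrial DNA, fell as well (-0.25, edgeR adjusted p = 0.0405). Its call held without control replicate 1 but not without NET replicate 1, NET replicate 2, NET replicate 3, control replicate 2 or control replicate 3 (edgeR adjusted p between 0.0565 and 0.158), and it was lost with upper quartile scaling (-0.20, edgeR adjusted p = 0.0781). The log2 fold change was -0.11 for Nrf1, -0.27 for Gabpa, -0.05 for Gabpb1 and 0.05 for Yy1, factors whose words were searched upstream. None of them passed the test with all libraries. Gabpa passed as lower without control replicate 1 (-0.37, edgeR adjusted p = 0.0146) and without both libraries numbered 1 (-0.29, edgeR adjusted p = 0.0127). It also passed with the length adjustment (-0.28, edgeR adjusted p = 0.0357). Gabpb1 was at 0.12 on log2(FPKM + 1). Esrra (0.19), Polrmt (0.15), Tfb1m (0.22), Tfb2m (0.16) and Twnk (-0.08) did not pass, and Ppargc1a was under the filter.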

How the data were processed

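CD8+ T cells from mouse spleen were compared with and without NETs by poly(A) RNA-seq on 6 libraries. Per the labels, RNA was fragmented, strand was marked with dUTP, libraries were size-selected and sequenced as paired ends, and mm10 was the genome build; no source used here names the aligner, counter or annotation. The deposited tables give estimated counts, many of them not whole and therefore rounded, and FPKM values, which the authors scaled to transcript length and library size. Both hold blank cells, left as missing. Columns were matched to samples by the names in their headers.

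Counts were tested with edgeR 4.0.16 in R 4.3.3 (quasi-likelihood F test, two-sided, filterByExpr, TMM normalisation, all 6 libraries, group as the only term), with p-values adjusted by Benjamini-Hochberg over 12546 genes and a threshold of 0.05. The script was tested on simulated data. TMM factors ran from 0.981 to 1.01, and CPM are on the TMM-scaled library sizes. The authors' methods name DESeq2 (here version 1.42.0), run as an alternative, as were limma 3.58.1 on counts (voom) and on log2(FPKM + 1) and log2(FPKM + 0.1), other scalings, other filters, a fold threshold, a replicate block, offsets fitted by loess (span 0.5) on transcript length, and each library left out in turn. Transcript length was estimated as counts over FPKM, scaled by total counts. The ratios of Cox7a2 to Cox7a2l and of Atp5g1 to Atp5g2, chosen with earlier results known, were compared by exact permutation.

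Members, gene lists and tests were chosen with earlier results of these data known. Genes named are members past the test, in each complex the 2 with the highest FPKM and the one with the smallest p, sets of paralogs, the 3 highest and 3 lowest changes, all listed regulators, and up to 3 called genes each way in the other lists; others are said to have been chosen after their values were seen, which also holds for Atp5pb, Atp5l, Sdha, Sdhc, Cyc1, Uqcrfs1, Sco2 and the promoter windows. One member that this rule names is counted but not reported here by name. Replicates of a group differed by more than sampling noise. The replicate numbers were not taken to pair samples. Upstream windows came from RefSeq (GRCm38.p6), in which 77 members had an entry.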

Additional observations from a re-analysis of the deposited data

How the results depend on the processing

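Depth was even, and the median SE was 0.13 on the log2 scale for members and for all genes. All 7 called members kept their direction under the alternatives run. The calls stayed at 6 or 7 higher and 1 lower under other scalings, filters, DESeq2, voom and FPKM. With each library left out in turn, the members called higher ranged from 2 to 7 and those lower from 0 to 6, the genes called among other pathway genes ranged from 9 to 19, and the median change from -0.07 to 0.15. The share called over all tested genes ranged from 34.0% to 45.4% in these fits. With the fold threshold, 0 members were higher and 0 lower, beside 1679 higher and 1488 lower genes over the whole table and 4 of the other pathway genes. The replicate block gave 13 members higher and 7 lower, with 7018 genes called over the whole table; among them Sdhb passed as higher (adjusted p = 0.0126), Cyc1 as higher (0.0169) and Sdha as lower (0.0312), all by edgeR. Deviations from the group means of libraries numbered 1, 2 and 3 correlated at 0.433, 0.138 and 0.0447 over all genes, and at 0.891, 0.54 and 0.635 over the 87 members. The labels do not tie the numbers to a mouse, batch or day, and NET replicate 2 correlated best with control replicate 3 (0.215 over all genes, 0.685 over members) and NET replicate 3 with control replicate 2 (0.192 and 0.702), so the samples were taken to share only a number. Length offsets gave 15 members lower and a median of -0.11; the replicate block with length offsets gave 26 lower, a median of -0.11, 4365 genes lower over the whole table and 31 of the other pathway genes. Leaving out both libraries numbered 1 gave 8 members lower. For these counts the cause was not tested.

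Directions turned for members whose change was small. With length offsets, without and with the replicate block, the log2 fold change was -0.09 and -0.09 for Cox4i1, -0.13 and -0.14 for Cox6b1, -0.11 and -0.11 for Cox7c, -0.04 and -0.04 for Ndufaf1, -0.04 and -0.04 for Sdhc, -0.09 and -0.09 for Uqcrfs1, and -0.15 and -0.15 for Uqcr10. With each library left out in turn it ranged from -0.27 to 0.51 for Cox6a1, from -0.05 to 0.18 for Cox7c, from -0.15 to 0.33 for Cox8a and from -0.12 to 0.18 for Uqcr10, each lowest without NET replicate 1, and from -0.24 to 0.23 for Ndufaf8. Gabpb1 was at 0.12 on log2(FPKM + 1) and 0.13 on log2(FPKM + 0.1). None of these passed the test in any alternative.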
